A study of Mus musculus with 10 samples.

Results

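Type I interferon-stimulated genes are the antiviral genes that a cell switches on when interferon (IFN) alpha or beta binds its receptor. The set described here held 46 such genes, chosen by name, among them the IFIT, OAS and Mx families, the RNA sensors, Irf7 and the ISG15 system. A gene was read by the probe set that the platform annotation ties to its symbol alone, the brightest over all arrays where there were several. By this rule 43 of the 46 genes were measured, out of 18193 genes on the array, and Isg15, Trex1 and Ifi44 were not analysed here. Expression was measured in whole skin of C3H/HeJ mice, the strain used to model alopecia areata (AA), in which hair loss is passed to healthy recipients by a graft of alopecic skin. Recipients were 8 to 10 weeks old at grafting. All 10 mice carried a graft, and an osmotic pump implanted with it delivered either baricitinib, which blocks the kinases JAK1 and JAK2, or the placebo that the labels call vehicle control. Skin was sampled at week 12 from 5 baricitinib treated and 5 vehicle control treated mice, with 1 array per mouse. Ungrafted skin was not analysed here. The comparison asks how JAK inhibition begun at grafting altered the IFN program of the skin.

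Type I IFNs bind a receptor made of Ifnar1 and Ifnar2, whose kinases Jak1 and Tyk2 activate a complex of STAT proteins with Irf9. The complex binds the IFN-stimulated response element (ISRE), a repeat of the letters GAAA found near the start of many of these genes. IFN gamma uses another receptor, with Jak1 and Jak2, and acts through the gamma-activated site (GAS), but it also raises many type I genes, so that the set does not tell one IFN from the other. In AA the hair follicle is surrounded by CD8 T cells that make IFN gamma.

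The promoter letters of the set are shown first, because the ISRE is the element through which type I IFN acts on many of these genes. Promoter windows of 250 bases before to 50 bases after the start, from RefSeq with build GRCm38.p6, were at hand for 32 of the 43 measured genes. The ISRE was searched on both strands as GAAA, any 2 bases, and GAAA again. A match was found in 13 of the 32 genes (40.6%), against 3.99% of all 27025 genes in the table and 3.44% of all 32851 windows. The GAS, searched as TTCNNNGAA, which reads the same on both strands, matched in 6 of 32 genes (18.8%), against 9.55% of all genes. Matches to both motifs stood in 2 genes, Bst2 and Eif2ak2, and in Bst2 they overlapped. The stretches below belong to the 6 genes with the largest differences among those whose ISRE match lay before the start, and each runs 35 bases to either side of the match, or to the start where that came first. They are written 5′ to 3′ on the strand of the gene, with the matches in capitals.
Ifit1, chr19:34640750-34640848, plus strand: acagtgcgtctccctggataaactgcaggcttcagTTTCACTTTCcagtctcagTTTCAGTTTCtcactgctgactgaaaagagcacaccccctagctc
Oas3, chr5:120777690-120777769, minus strand: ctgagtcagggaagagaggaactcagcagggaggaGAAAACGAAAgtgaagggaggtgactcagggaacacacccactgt
Ddx60, chr8:61927999-61928086, plus strand: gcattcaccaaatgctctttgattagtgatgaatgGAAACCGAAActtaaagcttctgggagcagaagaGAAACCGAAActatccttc
Rsad2, chr12:26456528-26456607, minus strand: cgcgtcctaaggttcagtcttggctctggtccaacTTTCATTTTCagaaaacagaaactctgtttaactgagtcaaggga
Bst2, chr8:71537552-71537637, minus strand: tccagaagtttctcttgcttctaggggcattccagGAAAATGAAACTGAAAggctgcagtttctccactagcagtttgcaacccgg
Trim30a, chr7:104465194-104465264, minus strand: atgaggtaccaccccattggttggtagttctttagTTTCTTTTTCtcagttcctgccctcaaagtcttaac
In Ifit1 and Ddx60 the match occurred at 2 places, and in Bst2 it occurred at 2 overlapping places. Ifit1, Rsad2 and Trim30a carried it on the opposite strand, where it reads as TTTC, any 2 bases, and TTTC again. The median difference in expression between baricitinib treated and vehicle control treated skin was -1.06 log2 for the 13 genes with an ISRE match and -0.76 log2 for the 19 without one. Without vehicle replicate 5, an array described below, the medians were closer, at -1.24 and -1.06 log2. The contrast between genes with and without a match was not tested. These matches are a description of letters in the reference strain, and binding was not measured.

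The arrays were not alike in quality. Vehicle replicate 5 had a median correlation of 0.71 with the other arrays, against 0.96 to 0.98 for each of the other 9, and its spiked controls were at 13.25 log2, against 11.21 to 11.99. The spiked controls also differed between the groups, at 11.32 ± 0.09 log2 for baricitinib and 11.98 ± 0.76 log2 for vehicle (SD, n = 5 each; two-sided exact permutation p = 0.0238). Without vehicle replicate 5 the vehicle arrays were at 11.66 ± 0.29 log2 (SD, n = 4; exact permutation p = 0.0476). RNA quality was read as the 3′ minus 5′ signal of beta-actin and Gapdh (the 3′/5′ gap), which grows as RNA degrades. It averaged 1.06 ± 0.08 log2 over the baricitinib arrays and 2.89 ± 1.40 log2 over the vehicle arrays (SD, n = 5 each; two-sided exact permutation p = 0.0317). Without vehicle replicate 5 the vehicle arrays averaged 2.60 ± 1.43 log2 (SD, n = 4; exact permutation p = 0.0635). Vehicle replicate 4 was alone among the vehicle arrays in having a gap as small, at 1.01 log2, as those of the baricitinib arrays. According to its methods the study dropped 1 vehicle array, which the labels do not name. All 10 arrays therefore entered, and the value without vehicle replicate 5 is also given wherever it turned the sign or moved a difference by over 1.5 times, as it did for 19 of the 43 genes. The keratinocyte genes Krt5 and Krt14 were at 10.91 log2 or above on every array, as skin should show.

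Across the set, 39 of the 43 genes had a lower mean after baricitinib than after vehicle, where 55.4% of all probe sets had a negative difference. The median difference was -0.84 log2, against -0.07 log2 over all probe sets, and single genes ranged from -2.45 log2 for Oasl2 to 0.39 log2 for Tor3a. A difference of more than 1 log2 unit below vehicle was measured for 15 genes (3.91% of all probe sets) and of more than 2 units for Oasl2, Herc6 and Ifit1 (0.26% of all probe sets). No gene of the set passed an adjusted p of 0.05 by limma, nor did any probe set on the array (0%). The smallest adjusted p in the set was 0.221, for Ifih1, and 10 genes had an unadjusted p under 0.05, where 5.62% of all probe sets had such a p and were lower. In no gene did the groups separate on all arrays (2.03% of all probe sets were lower without overlap). In whole skin, fewer cells of a type and less RNA per cell cannot be told apart.

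Without vehicle replicate 5, 42 of 43 genes had a negative difference (54.9% of all probe sets), all but the Schlafen gene Slfn5. The median was then -1.24 log2, against -0.04 log2 over all probe sets. A difference of more than 1 log2 unit below vehicle was measured for 29 genes (2.65%) and of more than 2 units for 8 genes (0.417%). Again 0 genes of the set, and 0% of the array, had an adjusted p under 0.05 by limma, with a smallest adjusted p of 0.0733. An unadjusted p under 0.05 was reached by 31 genes of the set, all lower (13.5% of all probe sets). Array quality weights came to 0.029 for vehicle replicate 5, 0.50 for vehicle replicate 4 and 1.09 to 2.05 for vehicle replicates 1 to 3. Baricitinib replicate 1 was weighted most of all, at 5.43, and baricitinib replicates 2 to 5 at 1.36 to 1.56. The weighted baricitinib mean thus leaned most on 1 mouse. In this fit 23 genes of the set fell at an adjusted p of 0.05 by limma and 0 rose. Their smallest adjusted p was 0.00867. Of all probe sets 21.5% passed and 10.6% passed and fell.

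**Figure D1:**
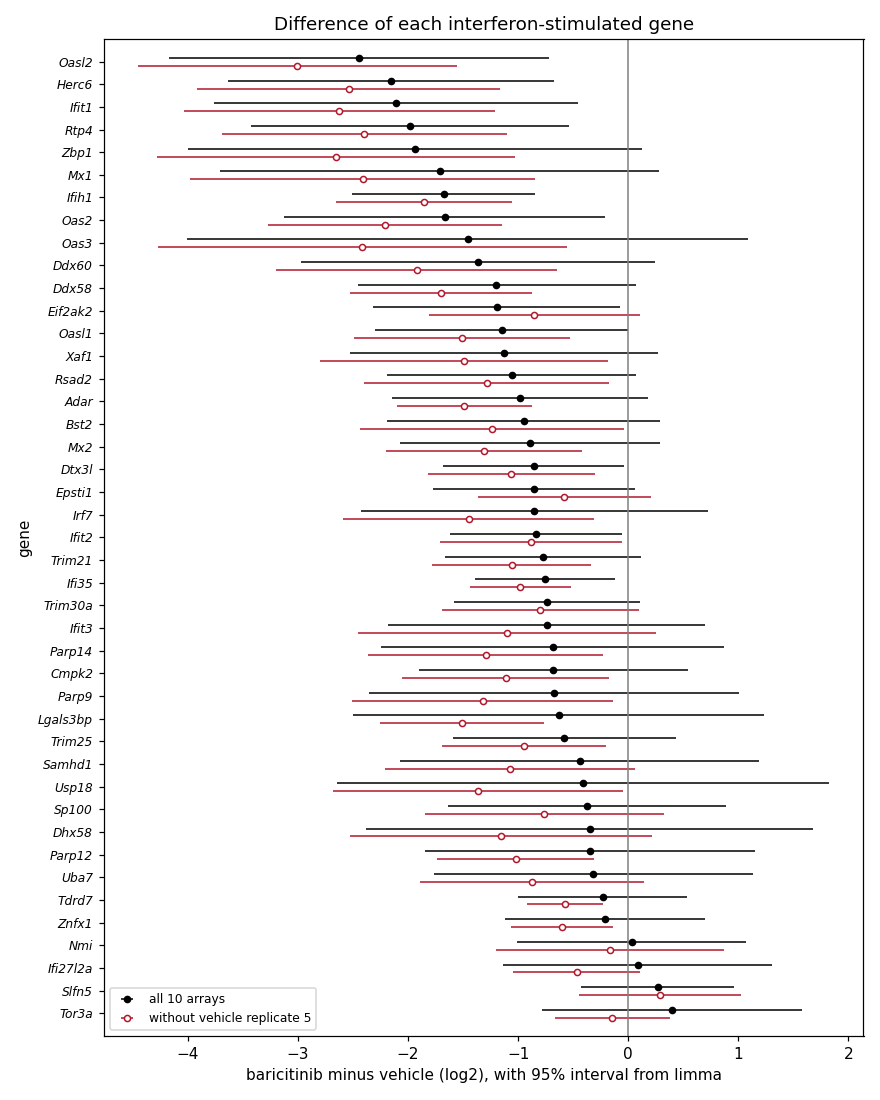
Difference of each of the 43 genes, baricitinib minus vehicle, on the log2 scale (x axis), with genes on the y axis ordered by it. Filled points are all 10 arrays and open points leave out vehicle replicate 5. Lines are 95% intervals from limma. 39 filled and 42 open points lie below 0, and the intervals of 10 and 31 genes exclude 0.

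Baricitinib replicate 5 stood apart within its group. It was the highest baricitinib array for 42 of the 43 genes (18% of all probe sets). It was below all of vehicle replicates 1 to 4 for 10 of the 43 genes and above the lowest of them for the other 33. Of all probe sets 23% were below all of those 4 arrays, which is near the share in the set, so neither count is a trait of the set. It was above all of them for 4 genes, and the share of all probe sets for this is not given here. The median of the set was 8.27, 7.39, 8.19, 8.34 and 10.12 log2 on baricitinib replicates 1 to 5. On vehicle replicates 1 to 5 it was 9.64, 9.85, 10.08, 10.30 and 7.44 log2. The median of baricitinib replicate 5 thus lay among those of vehicle replicates 1 to 4, and that of vehicle replicate 5 among those of baricitinib replicates 1 to 4. Gene by gene, however, vehicle replicate 5 lay within the range of baricitinib replicates 1 to 4 for only 16 genes. It was below all of those arrays for 18 genes and above all of them for 9. The share of all probe sets is not given here for these positions, so the counts cannot be read as a trait of the set. Vehicle replicate 5 was the lowest vehicle array for 38 genes (41.5% of all probe sets) and the highest for 2, Eif2ak2 and Epsti1. Among the other baricitinib arrays replicate 2 was the lowest of the group for 38 genes (24.4%), and replicate 4 the highest of replicates 1 to 4 for 33 (26.8%). Among all vehicle arrays replicate 4 was the highest for 23 genes (21.3%).

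**Figure D2:**
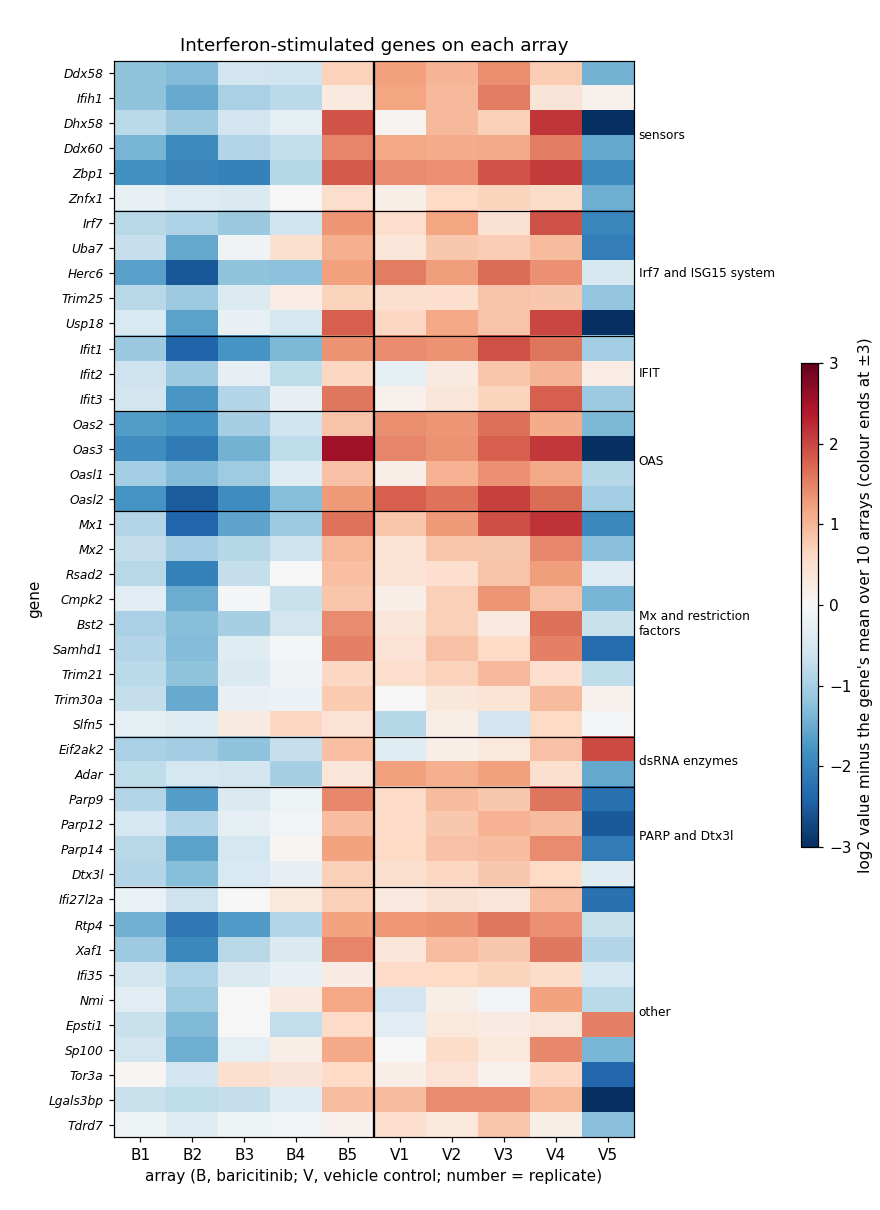
Each of the 43 genes (rows, by role) on each of the 10 arrays (columns; B, baricitinib; V, vehicle control), coloured by its log2 value minus its mean over the 10 arrays, with the colour scale ending at 3 in each direction. Baricitinib replicates 1 to 4 are mostly blue, baricitinib replicate 5 is red for nearly every gene, and vehicle replicate 5 is mostly blue against the red of the other vehicle arrays.

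The sensors come first in the response to viral nucleic acid, and all 6 were lower on average, the median being -1.28 log2 (-1.78 without vehicle replicate 5). Zbp1, which binds nucleic acid in the Z form and can trigger cell death, was at 6.81, 6.65, 6.61, 7.78 and 10.47 log2 in baricitinib replicates 1 to 5. In vehicle replicates 1 to 5 it was at 10.05, 9.99, 10.51, 10.72 and 6.72 log2. Baricitinib replicate 5 lay within the range of the 4 high vehicle arrays and vehicle replicate 5 within that of the 4 low baricitinib arrays. The difference was -1.93 ± 0.93 log2 (SE), a 3.82-fold lower level (limma, adjusted p = 0.355). The other probe set of Zbp1 gave -0.68 log2, and without vehicle replicate 5 the values were -2.65 and -1.06 log2. Ifih1, the helicase MDA5 that senses long double-stranded RNA, was at 9.06, 8.76, 9.30, 9.46 and 10.56 log2 in baricitinib treated skin and at 11.44, 11.23, 11.81, 10.66 and 10.39 log2 in vehicle control skin. Here the groups overlapped only because vehicle replicate 5 lay just below baricitinib replicate 5. The difference was -1.68 ± 0.37 log2 (SE), or 3.20-fold lower (limma, adjusted p = 0.221). Without vehicle replicate 5 it was -1.86 ± 0.36 log2 and the groups separated (limma, adjusted p = 0.0733). Ddx60, a related helicase, differed by -1.37 log2 and Ddx58, the helicase RIG-I, by -1.20 log2. Dhx58 encodes LGP2, a regulator of these helicases, and its difference was -0.35 log2, while that of the helicase Znfx1 was -0.21 log2. Without vehicle replicate 5 the last 2 were -1.16 and -0.60 log2.

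Irf7, the transcription factor that amplifies type I IFN production, was at 7.56, 7.46, 7.27, 7.80 and 9.71 log2 in baricitinib replicates 1 to 5. The corresponding vehicle replicates were at 8.93, 9.57, 8.85, 10.30 and 6.44 log2. Vehicle replicate 5 was the lowest of all 10 arrays, and the difference of -0.85 ± 0.71 log2 (SE; limma, adjusted p = 0.503) became -1.45 ± 0.51 log2 without it (limma, adjusted p = 0.118). The ISG15 system attaches a ubiquitin-like protein to others, and 4 of its genes were measured besides Irf7. Herc6, the ligase of this system in the mouse, was at 6.26, 5.36, 6.70, 6.68 and 9.12 log2 in baricitinib treated skin and at 9.44, 9.15, 9.59, 9.28 and 7.42 log2 in vehicle control skin. Its 4 lower baricitinib arrays lay below every vehicle array, and baricitinib replicate 5 lay just under vehicle replicates 1 to 4. The difference was -2.15 ± 0.67 log2 (SE), or 4.45-fold lower (limma, adjusted p = 0.240). On the other probe sets of Herc6, baricitinib replicate 5 lay above vehicle replicates 1 to 3. Uba7, the activating enzyme, differed by -0.32 log2 (-0.87 without vehicle replicate 5), and Usp18, the protease that removes ISG15 and blocks the type I receptor, by -0.41 log2 (-1.365). Trim25, a ligase that acts on RIG-I, differed by -0.58 log2 (-0.95 without vehicle replicate 5). Its other probe sets gave -0.43 and 0.20 log2, and -0.76 and -0.69 log2 without vehicle replicate 5. The 0.20 log2 was the value when probe sets that can match several transcripts were left out.

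The IFIT proteins bind foreign RNA, and the 3 genes differed by -2.11 log2 for Ifit1, -0.84 log2 for Ifit2 and -0.74 log2 for Ifit3. Ifit1, whose promoter holds the match at 2 places, was at 8.57, 7.28, 7.91, 8.32 and 11.02 log2 in baricitinib replicates 1 to 5. In vehicle replicates 1 to 5 it was at 11.08, 11.02, 11.59, 11.29 and 8.66 log2. Baricitinib replicate 5 was level with the lowest of vehicle replicates 1 to 4, and vehicle replicate 5 was level with the highest of baricitinib replicates 1 to 4. The standard error was 0.74 log2 and the fold 4.31 (limma, adjusted p = 0.269). Ifit2 and Ifit3 stand next to each other in the RefSeq gene order.

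The OAS enzymes make the short oligoadenylates that activate RNase L, and the family had the most negative median of the role groups, -1.56 log2 (-2.31 without vehicle replicate 5). Oasl2, an active synthetase in the mouse, was at 7.64, 6.93, 7.57, 8.15 and 10.71 log2 in baricitinib treated skin and at 11.22, 11.04, 11.47, 11.09 and 8.41 log2 in vehicle control skin. Each of its baricitinib arrays was below vehicle replicates 1 to 4. The difference was -2.45 ± 0.78 log2 (SE), a 5.45-fold lower level and the largest of the set (limma, adjusted p = 0.247). Without vehicle replicate 5 it was -3.005 ± 0.65 log2, or 8.03-fold (limma, adjusted p = 0.0733). Oas2 was at 7.07, 6.97, 7.73, 8.14 and 9.60 log2 in baricitinib replicates 1 to 5 and at 10.14, 10.07, 10.38, 9.86 and 7.40 log2 in vehicle replicates 1 to 5. It too had every baricitinib array below vehicle replicates 1 to 4, with a difference of -1.67 ± 0.66 log2 (SE; limma, adjusted p = 0.296) that was -2.21 ± 0.48 log2 without vehicle replicate 5 (limma, adjusted p = 0.0733). Oas3, another synthetase, differed by -1.46 log2, with vehicle replicate 5 at 3.60 log2 and baricitinib replicate 5 at 9.21 log2, and by -2.42 log2 without the former. Oasl1, which holds back Irf7 translation, differed by -1.15 log2.

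The Mx GTPases and restriction factors block viruses within the cell, and 8 of 9 were lower on average, the median being -0.77 log2 (-1.11 without vehicle replicate 5). Mx1, one of the genes that the study's IFN score counts, was at 7.71, 6.20, 6.997, 7.50 and 10.22 log2 in baricitinib treated skin and at 9.42, 9.86, 10.52, 10.75 and 6.64 log2 in vehicle control skin. Baricitinib replicate 5 exceeded vehicle replicates 1 and 2. The difference was -1.71 ± 0.90 log2 (SE), or 3.27-fold lower (limma, adjusted p = 0.381), and -2.41 ± 0.70 log2 without vehicle replicate 5 (limma, adjusted p = 0.0888). Rsad2, or viperin, which makes a chain-terminating nucleotide, was at 8.40, 7.19, 8.50, 9.23 and 10.12 log2 in baricitinib replicates 1 to 5. In vehicle replicates 1 to 5 it was at 9.64, 9.71, 10.08, 10.48 and 8.84 log2, so that vehicle replicate 5 lay among the baricitinib arrays. The difference was -1.06 ± 0.51 log2 (SE; limma, adjusted p = 0.354). Cmpk2, a nucleotide kinase that lies beside Rsad2, differed by -0.68 log2 (-1.11 without vehicle replicate 5). Bst2, the tether of budding virus, differed by -0.95 log2, and Mx2 by -0.89 log2. Trim21, a receptor for antibody in the cytosol, was at -0.77 log2, Trim30a at -0.74 log2 and the nucleotide hydrolase Samhd1 at -0.44 log2 (-1.07 without vehicle replicate 5).

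Slfn5 alone of the restriction factors had a positive difference. It was at 4.83, 4.77, 5.40, 5.74 and 5.57 log2 in baricitinib replicates 1 to 5 and at 4.28, 5.33, 4.55, 5.74 and 5.09 log2 in vehicle replicates 1 to 5. The groups overlapped throughout, with a difference of 0.27 ± 0.31 log2 (SE; limma, adjusted p = 0.614). Its other probe sets gave 0.08 and -0.91 log2.

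Eif2ak2 and Adar both act on double-stranded RNA. Eif2ak2, the kinase PKR that stops translation, was at 7.46, 7.39, 7.23, 7.75 and 9.34 log2 in baricitinib treated skin and at 8.06, 8.62, 8.74, 9.32 and 10.40 log2 in vehicle control skin. Vehicle replicate 5 was its highest array on this probe set, in contrast to most of the set, and the difference of -1.20 ± 0.50 log2 (SE; limma, adjusted p = 0.320) was smaller, -0.85 ± 0.43 log2, without that array (limma, adjusted p = 0.220). On the other probe sets of Eif2ak2 vehicle replicate 5 was instead the lowest vehicle array, at 6.87 and 5.88 log2. They gave -0.63 and -0.48 log2, and -1.02 and -0.79 log2 without vehicle replicate 5. Adar, the enzyme that edits adenosine to inosine, differed by -0.98 log2, and by -1.49 ± 0.27 log2 (SE) without vehicle replicate 5, when its groups separated (limma, adjusted p = 0.0733). Its other probe sets gave -0.40 and -0.04 log2. Without vehicle replicate 5 these were -0.80 and -0.44 log2, and on both the groups still overlapped.

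Parp9 and Dtx3l form a complex that modifies histones and viral proteins, and with Parp14 their genes lie side by side. The 4 genes of this group had a median difference of -0.68 log2 (-1.18 without vehicle replicate 5). Dtx3l was at 10.67, 10.26, 11.09, 11.29 and 12.25 log2 in baricitinib replicates 1 to 5. In vehicle replicates 1 to 5 it was at 12.01, 12.16, 12.36, 12.15 and 11.17 log2, with baricitinib replicate 5 second only to vehicle replicate 3. The difference was -0.86 ± 0.37 log2 (SE; limma, adjusted p = 0.323). Parp14, an ADP-ribosyltransferase, was at 9.32, 8.56, 9.63, 10.19 and 11.35 log2 in baricitinib treated skin and at 10.74, 11.04, 11.08, 11.56 and 8.06 log2 in vehicle control skin. Vehicle replicate 5 was its lowest array, and the difference of -0.69 ± 0.70 log2 (SE; limma, adjusted p = 0.564) was -1.30 ± 0.48 log2 without it (limma, adjusted p = 0.128). Parp9 differed by -0.68 log2 and Parp12 by -0.35 log2, and without vehicle replicate 5 by -1.32 and -1.02 log2.

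The 10 remaining genes had the least negative median of the role groups, -0.50 log2 (-0.67 without vehicle replicate 5). Rtp4, which inhibits flavivirus replication, was at 8.27, 7.58, 8.03, 8.85 and 10.93 log2 in baricitinib replicates 1 to 5. In vehicle replicates 1 to 5 it was at 11.03, 11.08, 11.30, 11.10 and 9.05 log2. All of its baricitinib arrays lay below vehicle replicates 1 to 4, with a difference of -1.98 ± 0.65 log2 (SE), or 3.95-fold (limma, adjusted p = 0.252). The other probe set of Rtp4 gave -1.01 log2 (-1.43 without vehicle replicate 5). There baricitinib replicate 5, at 8.44 log2, lay above vehicle replicates 1 to 3, at 7.41, 7.50 and 7.45 log2. Xaf1, a promoter of apoptosis, was at 8.77, 7.94, 9.04, 9.44 and 11.33 log2 in baricitinib treated skin and at 10.24, 10.80, 10.69, 11.46 and 8.98 log2 in vehicle control skin. Baricitinib replicate 5 was above all vehicle arrays but replicate 4, and the difference was -1.13 ± 0.63 log2 (SE; limma, adjusted p = 0.397). Epsti1 differed by -0.86 log2, and the nuclear body gene Sp100 by -0.37 log2 (-0.76 without vehicle replicate 5). Lgals3bp, a secreted galectin ligand, differed by -0.63 log2 and Tdrd7, which limits autophagy, by -0.23 log2, and both moved by over 1.5 times, to -1.51 and -0.57 log2, without vehicle replicate 5. Ifi35 differed by -0.76 log2 on a probe set that can match several transcripts, and by 0.15 log2 on the brightest of its others (-0.98 and -0.50 without vehicle replicate 5). Its remaining probe set, which can also match several transcripts, gave -0.945 log2 (-1.22 without vehicle replicate 5).

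A positive difference was measured for 3 of these 10 genes, each with its groups overlapping. Ifi27l2a was at 11.69, 11.28, 11.90, 12.22 and 12.61 log2 in baricitinib treated skin and at 12.19, 12.36, 12.26, 12.82 and 9.65 log2 in vehicle control skin. Its difference of 0.08 ± 0.55 log2 (SE; limma, adjusted p = 0.934) became -0.47 log2 without vehicle replicate 5, the lowest array. Tor3a, an ATPase of the endoplasmic reticulum, was at 9.48, 8.85, 9.90, 9.81 and 10.02 log2 in baricitinib treated skin. In vehicle control skin it was at 9.61, 9.85, 9.54, 10.03 and 7.07 log2, and its difference of 0.39 ± 0.53 log2 (SE; limma, adjusted p = 0.659) became -0.14 log2 without the last array. Nmi, the binding partner of Ifi35, was at 8.69, 7.96, 9.03, 9.32 and 10.19 log2 in baricitinib replicates 1 to 5 and at 8.46, 9.21, 8.93, 10.24 and 8.21 log2 in vehicle replicates 1 to 5. The difference was 0.03 ± 0.47 log2 (SE; limma, adjusted p = 0.972), and -0.17 log2 without vehicle replicate 5.

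**Figure D3:**
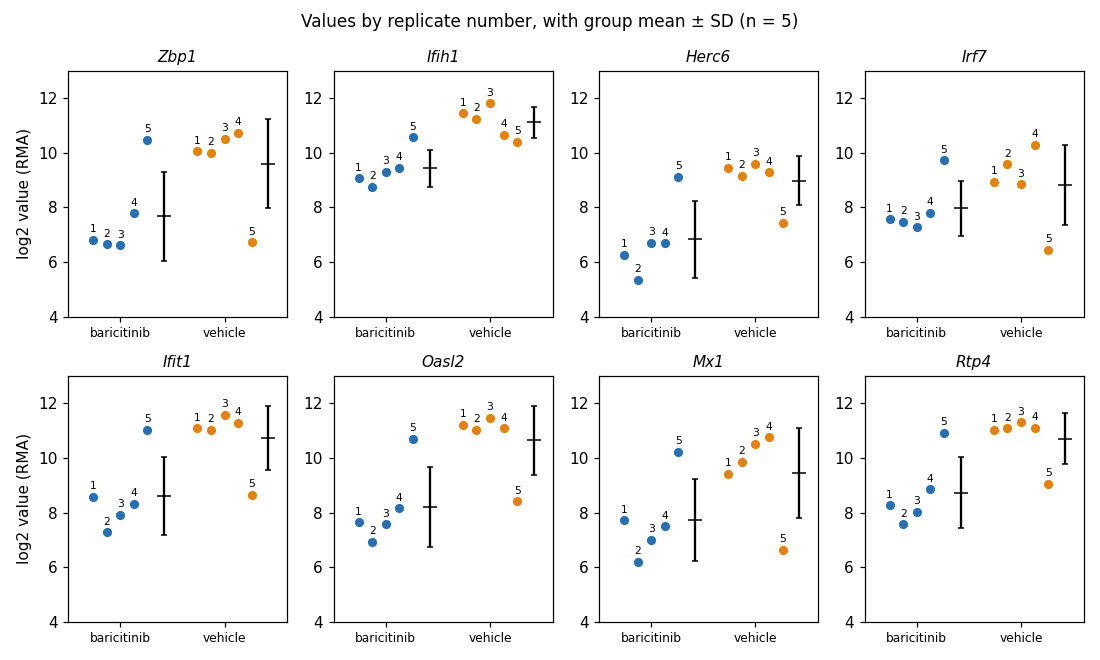
Log2 values (y axis) of 8 genes in each baricitinib (blue) and vehicle control (orange) array, labelled by replicate number, with the group mean ± SD (n = 5) as a black bar. In each panel baricitinib replicate 5 lies above the other baricitinib arrays, and vehicle replicate 5 below the other vehicle arrays.

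Without vehicle replicate 5 the groups separated for 10 genes, all lower in baricitinib treated skin (4.11% of all probe sets). They were the sensors Ddx58 and Ifih1, Herc6, Oas2 and Oasl2, Adar, Rtp4, Ifi35, Lgals3bp and Tdrd7. Lgals3bp then differed by -1.51 ± 0.33 log2 (SE; limma, adjusted p = 0.0737) and Tdrd7 by -0.57 ± 0.15 log2 (SE; limma, adjusted p = 0.0829). All 10 separations are those of the brightest probe set of the gene. On another probe set of Ddx58, Herc6, Adar, Rtp4, Ifi35 and Tdrd7 the groups overlapped, also without vehicle replicate 5. In 6 of the 10 genes vehicle replicate 4, whose 3′/5′ gap was that of the baricitinib arrays, was the lowest of vehicle replicates 1 to 4, and in 0 it was the highest. Over all 43 genes it was the lowest in 7 (36.3% of all probe sets) and the highest in 25 (31.7%). The part of RNA quality in these separations was not tested. When the gap entered the limma model as a covariate, the median difference of the set was -1.64 log2 and all 43 genes were negative, with 0 past an adjusted p of 0.05. The baricitinib arrays had gaps of 0.99 to 1.18 log2, and of the vehicle arrays only replicate 4 had one in that range. The covariate fit therefore cannot tell the gap from the treatment. When baricitinib replicate 5 was left out in place of vehicle replicate 5, the groups separated for 7 genes (3.39% of all probe sets were lower without overlap): Ifih1, Herc6, Ifit1, Oasl2, Trim30a, Eif2ak2 and Rtp4. On the other probe sets of Herc6, Eif2ak2 and Rtp4 the groups then overlapped.

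Of the 43 genes, 24 were read by several probe sets, and 84 probe sets in all belonged to the set. A negative difference was measured on 74 of these, and on 82 without vehicle replicate 5. In 19 of the 24 genes every probe set was negative, and in 22 without vehicle replicate 5. Sizes differed within genes. Herc6 was at -2.15 log2 on its brightest probe set and between -0.96 and -0.64 log2 on the others, and Sp100 at -0.37 and -1.35 log2. Dtx3l was at -0.86 log2 on its brightest probe set and at 0.20 log2 on the other (-1.06 and -0.03 without vehicle replicate 5). Members that are neighbours in the gene order had the same sign in each case, as in Rsad2 and Cmpk2, Oas2 and Oas3, and Oasl2 and Oasl1. With 39 of the 43 genes negative, most pairs of members share a sign, so this is no trait of neighbours.

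Of the receptors, kinases and factors of the pathway 9 of 12 were lower on average, the median being -0.14 log2 (-0.44 without vehicle replicate 5), and 0 passed an adjusted p of 0.05 by limma in either fit. Jak1 differed by -0.37 log2, Jak2 by -0.09 log2 and Tyk2 by -0.06 log2, and without vehicle replicate 5 by -0.58, -0.20 and -0.23 log2. Irf1, a factor induced by IFN gamma, had the largest difference at -1.05 ± 0.66 log2 (SE), followed by the receptor gene Ifngr1 at 0.58 ± 0.28 log2. Stat2 differed by -0.32 log2 and Irf9 by -0.31 log2, and without vehicle replicate 5 by -1.21 and -0.98 log2.

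Among 9 measured IFN ligand genes all differences were negative, the median being -0.55 log2 (-0.23 without vehicle replicate 5). Most of these genes were read at low signal. The median of the list lay between 3.47 and 4.96 log2 over the arrays, against 6.08 log2 over all probe sets and arrays. Ifng, the gene of IFN gamma, was at 4.09, 3.84, 3.89, 4.42 and 8.63 log2 in baricitinib replicates 1 to 5. In vehicle replicates 1 to 5 it was at 8.33, 8.69, 8.72, 9.26 and 3.81 log2. The arrays on which the type I set was high were those on which Ifng was high, baricitinib replicate 5 included. The difference was -2.79 ± 1.21 log2 (SE; limma, adjusted p = 0.327). Of the type I ligands, Ifnb1 lay between 3.47 and 4.96 log2, Ifna4 between 2.91 and 3.87 log2 and Ifnz between 8.28 and 10.09 log2. Ifna1, on a probe set that can match several transcripts, was at 4.44 to 4.84 log2 in baricitinib treated and 4.86 to 7.02 log2 in vehicle control skin, without overlap, and differed by -0.82 ± 0.38 log2 (SE; limma, adjusted p = 0.344), or by -0.42 log2 without vehicle replicate 5. Ifna11, with the next largest difference of the list at -0.998 ± 0.85 log2 (SE; -0.05 without vehicle replicate 5), was at 7.11 log2 on vehicle replicate 5 and between 2.10 and 2.58 log2 on the other 9 arrays.

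The genes that act in sensing upstream of IFN had a median difference of -0.33 log2 with 9 of 13 negative, and of -0.50 log2 with 10 negative without vehicle replicate 5. Cgas, the cytosolic DNA sensor, was at 7.68, 7.72, 8.08, 7.80 and 8.34 log2 in baricitinib treated skin and at 8.49, 8.75, 9.32, 8.41 and 9.88 log2 in vehicle control skin. Its groups did not overlap, and the difference was -1.04 ± 0.29 log2 (SE; limma, adjusted p = 0.229). Mavs, the adaptor of RIG-I and MDA5, differed by -0.86 ± 0.39 log2 (SE). It was high on vehicle replicates 1 to 3, at 8.52 to 9.30 log2, and between 7.19 and 7.75 log2 on vehicle replicates 4 and 5 and on all baricitinib arrays. Negative regulators of IFN signalling had a median of 0.12 log2 with 2 of 8 negative, which turned to -0.10 log2 with 5 negative without vehicle replicate 5. Socs3, a feedback inhibitor induced by cytokines, was at 8.31 to 9.61 log2 in baricitinib treated and 9.75 to 10.93 log2 in vehicle control skin, without overlap, and differed by -1.28 ± 0.29 log2 (SE; limma, adjusted p = 0.221). Pias1, a ligase that restrains STAT proteins, was at 9.97 to 10.39 log2 in baricitinib treated and 9.55 to 9.94 log2 in vehicle control skin, also without overlap, and differed by 0.33 ± 0.15 log2 (SE; limma, adjusted p = 0.329). The phosphatase gene Ptpn6 differed by 1.05 ± 0.83 log2 (SE), and by 0.18 log2 without vehicle replicate 5.

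Genes induced mainly by IFN gamma had a more negative median than the type I set, -1.72 log2 (-2.33 without vehicle replicate 5), with 16 of 17 negative, and the difference between the lists was not tested. Cxcl11 and Cxcl10, chemokines that draw T cells, differed by -4.15 ± 1.46 and -3.15 ± 1.31 log2 (SE). Cxcl11 was between 4.34 and 5.03 log2 on baricitinib replicates 1 to 4 and at 11.32 log2 on baricitinib replicate 5. In vehicle control skin it was between 10.20 and 11.49 log2 on replicates 1 to 4 and at 6.44 log2 on replicate 5.

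The T cell markers were lower on average for 9 of 10 genes, the median being -0.67 log2 (-1.07 without vehicle replicate 5) and 0 past an adjusted p of 0.05 by limma. The median of the list was between 5.79 and 6.53 log2 on baricitinib replicates 1 to 4, 8.21 log2 on replicate 5, between 8.42 and 9.25 log2 on vehicle replicates 1 to 4 and 6.11 log2 on vehicle replicate 5. Cd8a, the coreceptor of cytotoxic T cells, differed by -3.80 ± 1.43 log2 (SE) and Zap70, a kinase of the T cell receptor, by -1.48 ± 0.51 log2. Tcra, a gene of the receptor itself, lay between 2.24 and 2.57 log2 on all arrays but vehicle replicate 5, where it was at 4.62 log2. The part of T cell number in the difference of the type I set was not tested. Macrophage markers had a median of 0.21 log2 with 4 of 9 negative, which turned to -0.15 log2 with 5 negative without vehicle replicate 5. Their list median ranged from 9.48 to 10.49 log2 in baricitinib treated and from 8.44 to 10.30 log2 in vehicle control skin. C1qa and Lyz2 had the largest differences with all arrays, 1.80 ± 0.94 and 0.93 ± 0.52 log2 (SE), and were at 0.98 and 0.39 log2 without vehicle replicate 5. Fcgr1 was at -0.50 log2 with all arrays and -1.12 log2 without vehicle replicate 5, and Csf1r at -0.73 and -0.74 log2.

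Plasmacytoid dendritic cells are a source of type I IFN. Of 7 of their markers 5 had a negative difference (4 without vehicle replicate 5), and the list median ranged from 6.28 to 6.53 log2 in baricitinib treated and from 6.43 to 8.09 log2 in vehicle control skin. Siglech, their defining marker, lay between 5.61 and 6.33 log2 on 9 arrays and at 7.78 log2 on vehicle replicate 5. With all arrays the largest differences were those of Ly6d, which keratinocytes also express, at 1.66 ± 0.97 log2, and Ccr9 at -1.11 ± 0.26 log2 (SE). When vehicle replicate 5 was left out, they were 0.68 log2 for Ly6d and -1.13 log2 for Ccr9. Irf8 moved from -0.14 to -1.06 log2 and Tcf4 from 0.51 to 0.42 log2. Of 8 keratinocyte markers 5 were negative (6 without vehicle replicate 5), with Sfn at 1.33 ± 0.83 log2 (0.47 without that array) and Krt1 at -1.05 ± 0.30 log2 (SE). Of 6 skeletal muscle markers, which belong to the thin muscle under mouse skin, 5 were positive with a median of 0.85 log2, led by Ckm at 1.67 ± 0.50 and Acta1 at 0.92 ± 0.24 log2 (SE). The part of these cells in the result was not tested.

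**Figure D4:**
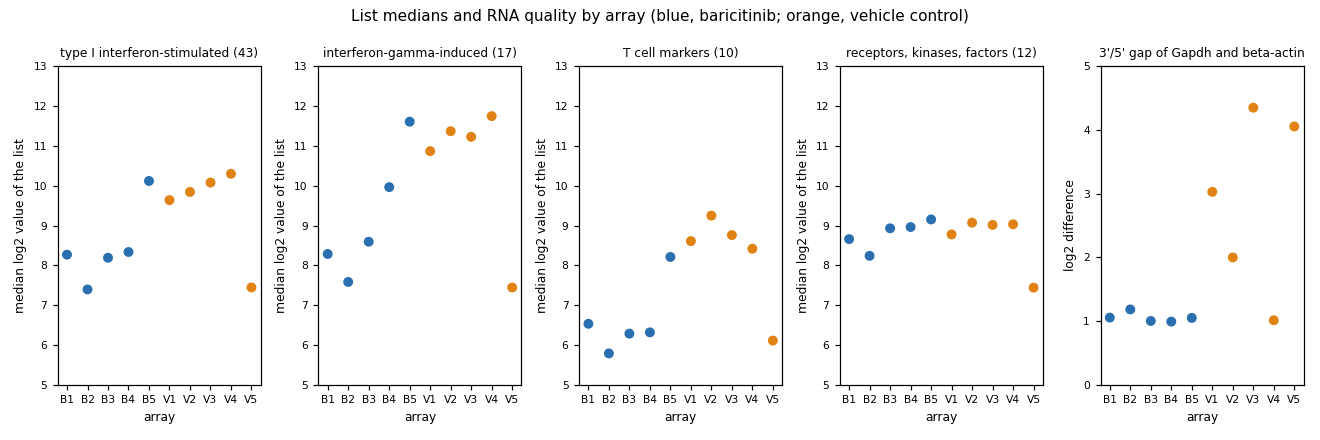
Median log2 value of 4 gene lists (y axis, first 4 panels, number of genes in brackets) and the 3′/5′ gap (log2, last panel) on each array (x axis; blue, baricitinib; orange, vehicle control). Baricitinib replicate 5 lies with the vehicle arrays in the type I, IFN gamma and T cell panels. Vehicle replicate 5 lies among baricitinib replicates 1 to 4 in the type I and T cell panels and below them in the IFN gamma and receptor panels. In the last panel vehicle replicate 4 lies with the baricitinib arrays.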

How the data were processed

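RNA of whole skin was amplified with NuGen kits, labelled, and hybridised to mouse arrays of Affymetrix. For every probe set the authors deposited a log2 value, which they had computed by RMA on this experiment alone; the RMA version is not given in the sources used here. RMA equalises the probe intensities of the arrays before summarising them, yet the SD over probe sets was 2.28 log2 on vehicle replicate 5 and 2.71 to 2.79 log2 on the others. The authors removed 1 vehicle array that the labels do not name, so all 10 arrays entered and each was left out in turn.

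Of the probe sets, 64 controls were set aside and 45037 tested without a filter. Groups were compared with limma 3.58.1 in R 4.3.3 (functions lmFit and eBayes; two-sided p, adjusted by Benjamini-Hochberg over every probe set tested). The 3′/5′ gap and the level of the spiked controls were compared with exact permutation tests in scipy 1.17.1. Precision is limited by the number of arrays. The calculation was tested on simulated data. The platform annotation gave 1 symbol for 34945 probe sets, several for 932 and none for 9160. Levels of different probe sets were compared only to choose the brightest of a gene, to filter dim ones and to set the IFN ligand list against all probe sets.

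The genes and all lists were chosen with earlier results of these data known. Every gene of the set was named; values on every array were given for the 2 genes with the largest absolute difference in each role group (1 in groups of 3), and for any with a positive difference. Of other lists the 2 genes with the largest difference were named, with others, such as Jak1, Stat2, Ifna1, Pias1 and Tcra, added after their values were seen. Alternatives were other normalisations, filters, probe sets, variance models, array weights, the replicate number as a block and RNA quality as a covariate.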

Additional observations from a re-analysis of the deposited data

Results flagged for a closer look

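Values that stood far from the rest of their group were counted over the 43 genes in both groups, 86 groups of 5 arrays. A value counted where its gap to the nearest array took more than 0.71 of the range of the group, which chance gives in about 1 in 20 groups. There were 29 such values, and each belonged to vehicle replicate 5, when it was low, or to baricitinib replicate 5, when it was high.

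Vehicle replicate 5 was low for 23 genes, or 53.5% of the 43, against 14.5% of all probe sets. The gap took 0.778 of the range for Ddx58, 0.863 for Ddx60, 0.819 for Zbp1 and 0.773 for Znfx1 among the sensors. It took 0.805 for Uba7, 0.800 for Herc6, 0.814 for Trim25 and 0.750 for Usp18 of the ISG15 system. For the IFIT and OAS families it was 0.804 for Ifit1, 0.825 for Oas2, 0.852 for Oas3 and 0.861 for Oasl2. Of the restriction factors and RNA enzymes, Samhd1 had 0.720, Trim21 0.730 and Adar 0.724. Parp9 had 0.735, Parp12 0.873 and Parp14 0.764. Among the remaining genes the share was 0.802 for Ifi27l2a, 0.881 for Rtp4, 0.904 for Ifi35, 0.8355 for Tor3a and 0.896 for Lgals3bp.

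Baricitinib replicate 5 was high for 6 of the 43 genes, against 1.05% of all probe sets. The share was 0.728 for Dhx58, 0.783 for Irf7, 0.801 for Mx2, 0.7315 for Bst2, 0.752 for Eif2ak2 and 0.770 for Lgals3bp.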

How the results depend on the processing

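The median difference of the set was negative under every alternative, from -1.64 log2 with RNA quality as a covariate to -0.63 log2 without baricitinib replicate 2, and between 37 and 43 genes were negative. The count of genes past an adjusted p of 0.05 by limma was 0 under each alternative but array quality weights, which gave 23 genes and 9676 probe sets. With an array left out it stayed 0, while the count of probe sets ranged from 0 to 848, with 848 without vehicle replicate 4 and 12 without baricitinib replicate 5; the cause was not tested. The count of genes whose groups did not overlap ranged from 0 to 10 over these settings, reaching 10 when vehicle replicate 5 was dropped and 7 when baricitinib replicate 5 was, and was 1 after quantile normalisation and 2 after cyclic loess. For these normalisations the share of all probe sets is not given here, so the counts of 1 and 2 cannot be read as a trait of the set. With the deposited values 2.03% of all probe sets were lower without overlap.

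The sign of 9 genes turned under at least 1 alternative. Nmi was at -0.040, -0.258, -0.107 and -0.170 log2 without baricitinib replicate 4, baricitinib replicate 5, vehicle replicate 1 and vehicle replicate 5. It was at -0.119 with weights, -0.850 with RNA quality, and -0.041, -0.127 and -0.273 after centring, quantile normalisation and loess. Ifi27l2a was at -0.083 and -0.468 without baricitinib and vehicle replicate 5, and at -0.462, -0.919, -0.039 and -0.060 with weights, RNA quality, quantile normalisation and loess. Tor3a was at -0.144 without vehicle replicate 5, -0.142 with weights and -0.584 with RNA quality. Slfn5 was at -0.300 with RNA quality and -0.188 as the mean of its probe sets. Dhx58 was at 0.142 and Usp18 at 0.039 without vehicle replicate 4, and Uba7 at 0.026 without baricitinib replicate 2. With an array left out, the ranges were -1.155 to 0.142 for Dhx58, -1.365 to 0.039 for Usp18, -0.875 to 0.026 for Uba7, -0.468 to 0.325 for Ifi27l2a, -0.258 to 0.338 for Nmi and -0.144 to 0.596 for Tor3a. Trim25 was at 0.201 and Ifi35 at 0.147 without probe sets that can match several transcripts. The filter on dim probe sets left out 1 gene of the 43, Slfn5.

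With the replicate number as a block, 0 genes and 0 probe sets passed and the median was -0.84 log2. Same-numbered arrays did not vary together (correlations of 0.088, 0.046, -0.032, -0.111 and -0.227), so the numbers were not taken to pair the mice.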
